A study of Homo sapiens with 9 samples.

Results

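The interferon regulatory factors IRF1, IRF2, IRF3, IRF5 and IRF7 were followed through a type I interferon response in SUIT2 cells, an established line derived from a human pancreatic cancer. They were taken from the deposited table by exact gene symbol, and are 5 of its 59609 genes. Total RNA was sequenced from 3 groups of 3 libraries: cells given 100 U/mL human interferon beta (IFNβ) for 24 h, cells given the same dose for 6 h, and control-treated cells. The series title places the experiment in work on STING-driven interferon and metabolism in pancreatic cancer. All were plated at 500000 cells per well for 24 h before treatment. The labels give no duration for the controls and carry the treatment protocol on them too, so the controls are known as such only from their titles and treatment labels. No label says whether replicates came from separate cultures. The p-values therefore measure only the spread between these libraries, and that spread may be technical.

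IRF proteins share a DNA-binding domain with a repeat of conserved tryptophans, through which they recognise GAAA-rich elements in the promoters of interferon and interferon-stimulated genes. IRF3, IRF5 and IRF7 lie dormant in the cytoplasm until sensing pathways have them phosphorylated, and then induce interferon genes. IRF1 is an activator made on demand, IRF2 an antagonist on the same elements, and IRF9 is the DNA-binding partner in ISGF3, the complex that reads out type I interferon.

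Promoter sequences of IRF1, IRF5 and IRF9 are shown because a window at a start site of each held the letters of an element that interferon-activated factors read. The windows run from 250 bases before to 50 bases after an annotated start, from RefSeq on GRCh38.p14, and are written 5′ to 3′ on the gene's own strand. Capitals in IRF1 mark the only match to the GAS motif TTCNNNGAA, which lay 124 to 116 bases before the start. In IRF9 they mark a GAS match 63 to 55 bases before the start and a match to the IRF core AANNGAAA 35 to 28 bases before it. In IRF5 they mark an IRF core match on the opposite strand, 33 to 26 bases before 1 of its 4 annotated starts. That window was chosen because it held the match. Both windows of IRF8, which had 0 counts in every library, also held IRF core matches and are not printed.
IRF1 promoter, minus strand, chr5:132490724-132491023: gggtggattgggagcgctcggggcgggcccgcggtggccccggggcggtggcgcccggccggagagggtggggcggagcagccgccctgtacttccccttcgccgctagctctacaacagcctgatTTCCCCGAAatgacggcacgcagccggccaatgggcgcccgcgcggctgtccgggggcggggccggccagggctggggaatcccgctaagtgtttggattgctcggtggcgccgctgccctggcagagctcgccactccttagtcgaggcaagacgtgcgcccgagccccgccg
IRF9 promoter, plus strand, chr14:24161015-24161314: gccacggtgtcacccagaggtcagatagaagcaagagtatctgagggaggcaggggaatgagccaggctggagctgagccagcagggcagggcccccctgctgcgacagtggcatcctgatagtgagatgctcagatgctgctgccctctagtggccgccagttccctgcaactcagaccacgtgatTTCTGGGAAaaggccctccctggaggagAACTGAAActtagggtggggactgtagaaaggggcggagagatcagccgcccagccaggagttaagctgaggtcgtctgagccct
IRF5 promoter, plus strand, chr7:128940420-128940719: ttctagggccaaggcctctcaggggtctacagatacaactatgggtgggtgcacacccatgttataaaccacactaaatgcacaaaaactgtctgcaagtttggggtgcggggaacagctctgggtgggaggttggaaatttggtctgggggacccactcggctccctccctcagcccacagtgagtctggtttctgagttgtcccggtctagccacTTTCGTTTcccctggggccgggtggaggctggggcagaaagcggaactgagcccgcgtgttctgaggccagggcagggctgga
On both strands, GAS was present in 7.66% of 35116 promoter windows of this length and the IRF core in 22.8%. A match of letters describes the sequence and does not show a site in use. IRF2, IRF3 and IRF7 are named without sequence.

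Transcript levels are given in CPM, read counts scaled to a common library total with TMM factors, which correct for depth and composition. Fold changes come from edgeR's quasi-likelihood test over 16964 genes, and a gene is said to rise or fall where its Benjamini-Hochberg adjusted p is under 0.05. Estimated counts per library totalled 25270387 to 40384407 at 24 h, 16799278 to 37420457 at 6 h and 15101734 to 19632741 in control. The 7 epithelial markers KRT7, KRT8, KRT18, KRT19, EPCAM, CDH1 and MUC1 were all detected, summing to 5359 to 5484 CPM at 24 h, 5464 to 5771 CPM at 6 h and 4838 to 4902 CPM in control. Markers of fibroblasts, endothelium and acinar cells each summed to 2.40 CPM or less in every library. In bulk RNA, a change in the number of expressing cells and a change in RNA per cell cannot be told apart.

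The family showed 3 patterns. IRF7, IRF1 and IRF2 rose by 25.5-fold, 7.64-fold and 5.09-fold at 6 h and were lower at 24 h than at 6 h, though still above control. IRF3 differed from control by less than 1.2-fold at both times in this fit, and IRF5 rose from a few reads at 24 h. All 5 members passed the low-count filter, IRF5 only through its 24 h libraries. The other 4 rose at both times. Over all genes tested, 50.0% were called at 24 h (24.7% higher and 25.3% lower), and 32.9% at 6 h (17.5% higher and 15.4% lower). Between the times, IRF1, IRF2 and IRF7 fell, IRF3 did not pass, and IRF5 was higher at 24 h. There 57.2% of all genes tested were called, 30.6% lower and 26.6% higher. IRF1, IRF2, IRF3 and IRF7 had each 24 h library above each control (29.9% of genes), and each 6 h library above each control (21.3%). Each 24 h library lay below each 6 h library for IRF1, IRF2 and IRF7 (32.4% of genes). IRF5 had each 24 h library above each control, and above each 6 h library (29.8% of genes). Tested only through its 24 h libraries, IRF5 is described here and not counted with the others. The members' counts are to be read against these shares.

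**Figure D1:**
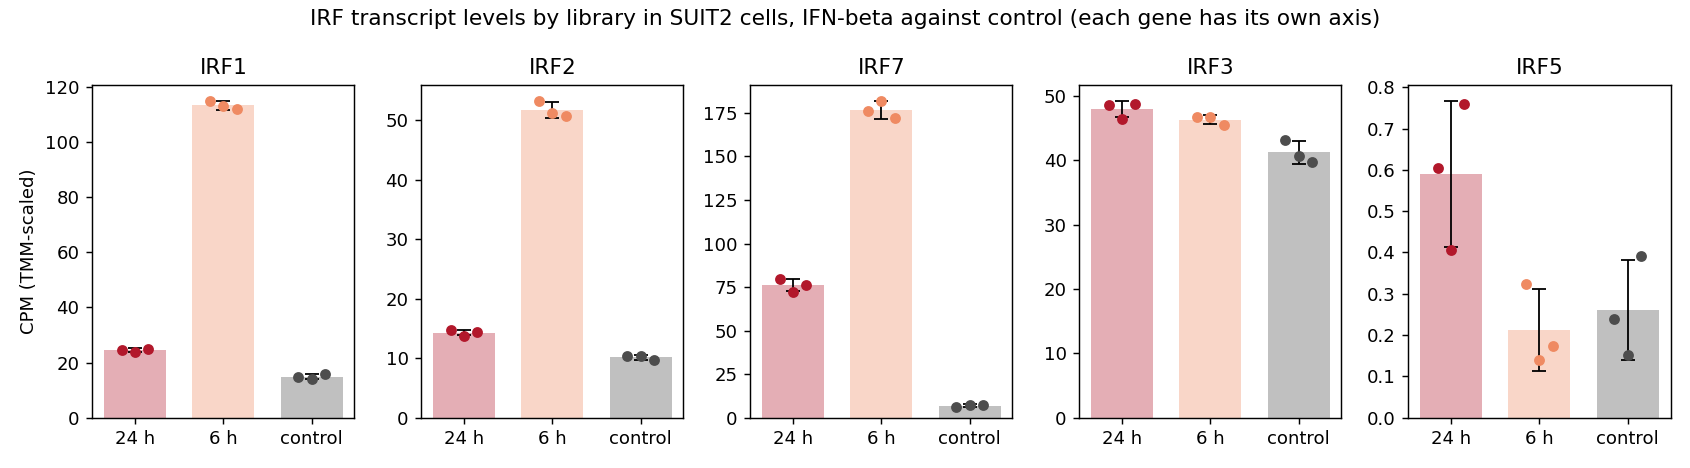
Levels of the 5 IRF transcripts in CPM with TMM factors, for IFNβ at 24 h, IFNβ at 6 h and control; points are libraries, bars are means and whiskers SD (n = 3). IRF1, IRF2 and IRF7 are highest at 6 h in all libraries, IRF3 keeps between 39.8 and 48.8 CPM, and IRF5 stays under 1 CPM.

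IRF7, the amplifier that widens interferon production once it has been made and phosphorylated, changed the most. It lies on chromosome 11 from 612553 to 615983 on the minus strand (hg38). Its level was 79.5, 72.4 and 76.2 CPM at 24 h, 176, 182 and 172 CPM at 6 h, and 5.99, 7.35 and 7.37 CPM in control. All 3 groups were apart, with 6 h highest and control lowest. The log2 change at 24 h was 3.46 (SE 0.068, adjusted p = 1.9e-15, edgeR), an 11.0-fold rise, and ranked 67th of 16964 genes. At 6 h it was 4.67 (SE 0.064, adjusted p = 9.67e-18, edgeR), ranking 78th. The 24 h level was lower than the 6 h level by a log2 change of -1.21 (SE 0.041, adjusted p = 1.52e-12, edgeR), or 2.32-fold.

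Neither gene that flanks IRF7 was called in any comparison of the edgeR model with TMM factors. PHRF1 lies 330 bases from IRF7 on one side and CDHR5 593 bases from it on the other. PHRF1, which encodes a PHD and RING finger protein, averaged 41.7 CPM at 24 h, 41.0 CPM at 6 h and 40.0 CPM in control. CDHR5, a protocadherin-type adhesion gene, averaged 3.74, 3.58 and 3.02 CPM in the same order of groups, with overlapping libraries. Scaling by library size alone gave a call for both at 24 h in edgeR, with adjusted p = 0.0385 for CDHR5 and adjusted p = 0.044 for PHRF1. The deposited normalized table, tested with limma, also gave a call for both at 24 h, with adjusted p = 0.00236 for CDHR5 and adjusted p = 0.0102 for PHRF1. CDHR5 was further called at 24 h without control replicate 3 (adjusted p = 0.0266, edgeR). Between the times PHRF1 was called with library size only (adjusted p = 0.000871).

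IRF1, the activator first described on the interferon beta gene, lies on chromosome 5 from 132481609 to 132490777 on the minus strand. It had 24.7, 23.7 and 25.1 CPM at 24 h, 115, 113 and 112 CPM at 6 h, and 14.7, 14.1 and 15.8 CPM in control. The groups did not overlap, and the 24 h libraries lay much nearer to control than to 6 h. At 24 h IRF1 was 1.66-fold above control (log2 0.73, SE 0.054, adjusted p = 2.1e-08, edgeR). At 6 h its log2 change was 2.93 (SE 0.047, adjusted p = 7.01e-17, edgeR). Between the times it fell by 2.21 on the log2 scale (SE 0.039, adjusted p = 8.05e-16, edgeR), the 87th most negative change of all genes tested. Its rank among rises was 189th at 6 h and 1493rd at 24 h.

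IRF1-AS1, a long noncoding RNA gene on the opposite strand, shares 7094 bases with IRF1. It had 2.9, 2.48 and 3.5 CPM at 24 h, 13.9, 14.7 and 17.0 CPM at 6 h, and 1.38, 1.26 and 1.17 CPM in control. Its log2 changes were 1.23 at 24 h (SE 0.19, adjusted p = 5.39e-05), 3.59 at 6 h (SE 0.16, adjusted p = 4.29e-11) and -2.36 between the times (SE 0.12, adjusted p = 1.8e-10), all by edgeR. Whether counting used strand is not stated in these sources, and without strand the reads of both genes in the shared stretch cannot be told apart. The deposited counts of IRF1 were more than 0.05 away from a whole number in 8 of 9 libraries and those of IRF1-AS1 in 9 of 9. The same held for IRF9 in 9 of 9 and for BCL2L12, a gene that overlaps IRF3, in 8 of 9. Those of IRF2, IRF3, IRF5 and IRF7 were within 0.05 of a whole number in all. IRF1-AS1 counts per IRF1 count were 0.117, 0.105 and 0.140 at 24 h, 0.121, 0.130 and 0.152 at 6 h, and 0.0939, 0.0893 and 0.0741 in control. The treated libraries all lay above the controls, and the treated groups overlapped.

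IRF2, which binds the same elements as IRF1 and damps their activation, lies on chromosome 4 from 184387729 to 184474550 on the minus strand. It had 14.7, 13.8 and 14.4 CPM at 24 h, 53.3, 51.3 and 50.7 CPM at 6 h, and 10.4, 10.3 and 9.71 CPM in control. As for IRF1, the groups were apart and the 24 h libraries sat close to control. The rise at 24 h was 1.41-fold (log2 0.50, SE 0.062, adjusted p = 7.35e-06, edgeR). At 6 h the log2 change was 2.35 (SE 0.055, adjusted p = 1.16e-14, edgeR), and between the times it was -1.85 (SE 0.046, adjusted p = 3.49e-14, edgeR). The activator and its antagonist thus shared the order of groups, with a larger rise of IRF1.

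IRF2BP1 and IRF2BP2, corepressors of IRF2, and their relative IRF2BPL had smaller log2 changes. IRF2BPL averaged 33.4 CPM at 24 h, 54.9 CPM at 6 h and 41.7 CPM in control, falling at 24 h (log2 -0.32, adjusted p = 0.000264, edgeR) and rising at 6 h (log2 0.39, adjusted p = 6.84e-05, edgeR). IRF2BP1 fell at 24 h (log2 -0.27, adjusted p = 0.000789, edgeR) and did not pass at 6 h (log2 -0.11, adjusted p = 0.185, edgeR). IRF2BP2 did not pass against control at 24 h or at 6 h, with log2 changes of 0.01 and -0.07. With library size only it was called at both times, higher at 24 h (log2 0.085, adjusted p = 0.0275) and lower at 6 h (log2 -0.211, adjusted p = 3.94e-05). In the deposited normalized table, on which the median of all genes stood 0.371 above control on the log2 scale at 24 h, IRF2BPL and IRF2BP1 were above control at 24 h without passing the test, and IRF2BP2 was called higher (log2 0.444, adjusted p = 0.0169).

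IRF3, the constitutively made factor that responds first to viral nucleic acid, lies on chromosome 19 from 49659569 to 49665875 on the minus strand. It had 48.6, 46.5 and 48.8 CPM at 24 h, 46.7, 46.7 and 45.5 CPM at 6 h, and 43.2, 40.6 and 39.8 CPM in control. Every treated library was above every control library, by a margin small beside those of IRF1, IRF2 and IRF7. The rise was 1.17-fold at 24 h (log2 0.22, SE 0.042, adjusted p = 0.00044, edgeR) and 1.12-fold at 6 h (log2 0.17, SE 0.044, adjusted p = 0.00868, edgeR). The treated groups overlapped, and between the times the log2 change was 0.06 (SE 0.040, adjusted p = 0.256, edgeR). The 6 h call depended on scaling: with library size only, the log2 change was 0.026 (adjusted p = 0.662) while the median of all genes moved to -0.145. In the deposited normalized table its log2 change at 24 h was 0.643 (adjusted p = 0.000559, limma), where the median of all genes stood at 0.371.

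BCL2L12, a BCL2 family gene that overlaps the start of IRF3 by 734 bases on the opposite strand, did not pass in any comparison with TMM factors. It averaged 15.2 CPM at 24 h, 14.6 CPM at 6 h and 15.7 CPM in control, with overlapping libraries. With library size only it was called lower at 6 h (log2 -0.260, adjusted p = 0.0237) and higher between the times (log2 0.294, adjusted p = 0.00458).

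IRF5, best known from myeloid and B cells, where it drives inflammatory cytokines and interferon downstream of Toll-like receptors, lies on chromosome 7 from 128937457 to 128950038 on the plus strand. It was close to the limit of detection, with 26, 11 and 28 counts at 24 h, 5, 3 and 6 counts at 6 h, and 4, 3 and 6 counts in control. In CPM these were 0.604, 0.407 and 0.760 at 24 h, 0.324, 0.139 and 0.174 at 6 h, and 0.240, 0.151 and 0.391 in control. The 24 h libraries were all above the others, the lowest of them only just above the highest control, and 2 of the 3 6 h libraries lay within the range of the controls.

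With the filter passed at 24 h only, IRF5 had to differ between groups to be tested. Its log2 change was 1.24 at 24 h (SE 0.45, adjusted p = 0.0313, edgeR), -0.34 at 6 h (SE 0.57, adjusted p = 0.707, edgeR) and 1.58 between the times (SE 0.43, adjusted p = 0.00576, edgeR). The call against control at 24 h was lost with DESeq2 (adjusted p = 0.134), without control replicate 1 (adjusted p = 0.0882) and without control replicate 2 (adjusted p = 0.154). Leukocyte markers were low: PTPRC, CD3E, MS4A1 and CLEC4C were at 0 counts in all libraries. The 8 markers of that list together reached 0.869 to 1.00 CPM at 24 h, 0.389 to 0.436 CPM at 6 h and 0.326 to 0.540 CPM in control, highest at 24 h in all 3 libraries. The 4 fibroblast markers summed to 0.790 to 0.896 CPM at 24 h, 0.325 to 0.647 CPM at 6 h and 0.261 to 0.403 CPM in control, and the 3 acinar markers to 0.516 to 0.630, 0.260 to 0.378 and 0.120 to 0.456 CPM. The fibroblast sum was mostly COL1A1, a collagen gene with 28, 18 and 19 counts at 24 h, 2, 13 and 15 counts at 6 h, and 4, 6 and 2 counts in control, called higher at 24 h (adjusted p = 0.0229, edgeR). That call was lost with DESeq2 (adjusted p = 0.0722) and without 24 h replicate 1 or 2 or control replicate 1 or 3 (edgeR, highest adjusted p = 0.0896). Like IRF5, COL1A1 passed the low-count filter only through its 24 h libraries, so its call is a description. In these 2 lists DCN and CPA1 were at 0 in all libraries. PDGFRB summed to 25 counts at 24 h, 4 at 6 h and 4 in control, and CELA3A to 53, 18 and 14. COL1A2 summed to 0, 2 and 1 counts in the same order of groups, and PRSS1 to 7, 6 and 1. The markers' part in the IRF5 result was not tested.

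**Figure D2:**
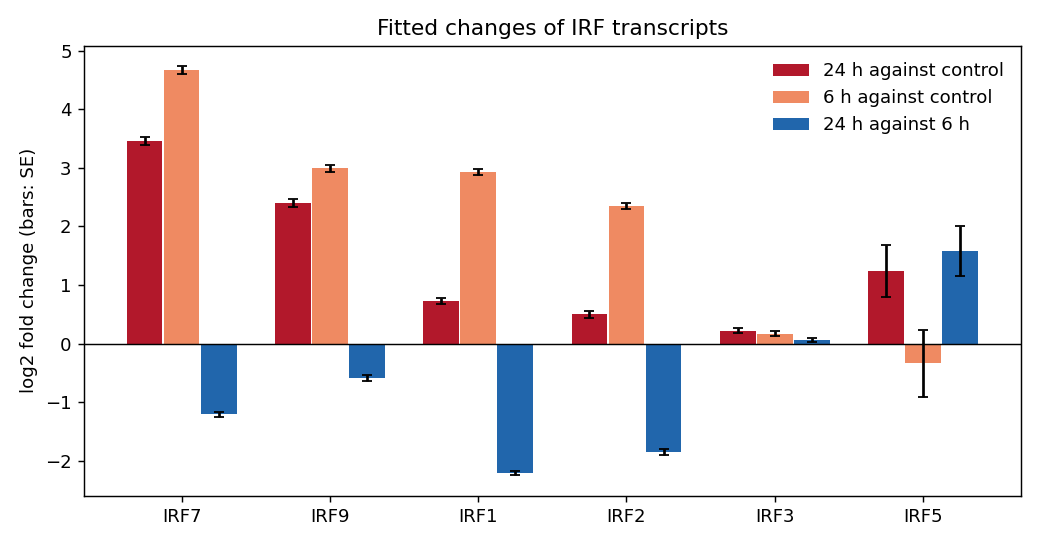
Fitted log2 fold changes with SE from edgeR for IRF7, IRF9, IRF1, IRF2, IRF3 and IRF5; dark red bars set 24 h against control, orange bars 6 h against control and blue bars 24 h against 6 h. IRF7, IRF9, IRF1 and IRF2 are positive against control and negative between the times, and IRF5 has the widest errors.

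IRF9, a further family member, rose at both times. It overlaps the gene AL136295.5 on the same strand, and its deposited counts were more than 0.05 away from a whole number in 9 of 9 libraries. Its level was 69.7, 69.6 and 70.3 CPM at 24 h, 105, 106 and 104 CPM at 6 h, and 10.7, 14.1 and 14.7 CPM in control. It rose by 2.40 on the log2 scale at 24 h (SE 0.066, adjusted p = 1.34e-13, edgeR) and by 2.99 at 6 h (SE 0.065, adjusted p = 4.22e-15, edgeR). At 24 h it was lower than at 6 h by a log2 change of -0.59 (SE 0.047, adjusted p = 4.28e-08, edgeR), a call lost in the deposited normalized table (highest adjusted p = 0.145). At 24 h IRF9 was thus 5.29-fold above control, against 1.66-fold for IRF1, although their rises at 6 h were 7.95-fold and 7.64-fold.

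The lymphoid factors IRF4 and IRF8 were at or near 0. IRF8 had 0 counts in all 9 libraries, which allows a level of up to 0.0697 to 0.196 CPM depending on the library (3 counts, counting error only), and IRF4 had 1 count in all.

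Ratios within a library do not depend on scaling. IRF7 counts per IRF3 count were 1.63, 1.56 and 1.56 at 24 h, 3.78, 3.90 and 3.78 at 6 h, and 0.139, 0.181 and 0.185 in control. The mean was 1.58 ± 0.0437 at 24 h, 3.82 ± 0.0700 at 6 h and 0.168 ± 0.0256 in control (SD, n = 3 each). The 2 factors share their activating kinases, and their transcripts changed places: fewer IRF7 than IRF3 counts in every control library, and more in every treated one. 

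IRF1 counts per IRF2 count were 1.68, 1.72 and 1.73 at 24 h, 2.16, 2.20 and 2.20 at 6 h, and 1.42, 1.37 and 1.63 in control. This ratio was largest at 6 h, and the highest control was close to the lowest 24 h library. The counts are not divided by gene length, so the ratio does not say which of the transcripts was more abundant. IRF7 counts per IRF1 count, a ratio chosen after the values were seen, were 3.21, 3.06 and 3.04 at 24 h, 1.53, 1.61 and 1.54 at 6 h, and 0.408, 0.521 and 0.465 in control. This ratio was higher at 24 h than at 6 h, while both of its genes were lower. With 3 libraries against 3, the exact two-sided permutation test cannot go below p = 0.1. It gave that value in 11 of 12 comparisons of ratios (4 ratios, 3 comparisons each; Benjamini-Hochberg adjusted 0.109). The other, IRF1-AS1 per IRF1 at 24 h against 6 h, gave an exact p = 0.4.

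**Figure D3:**
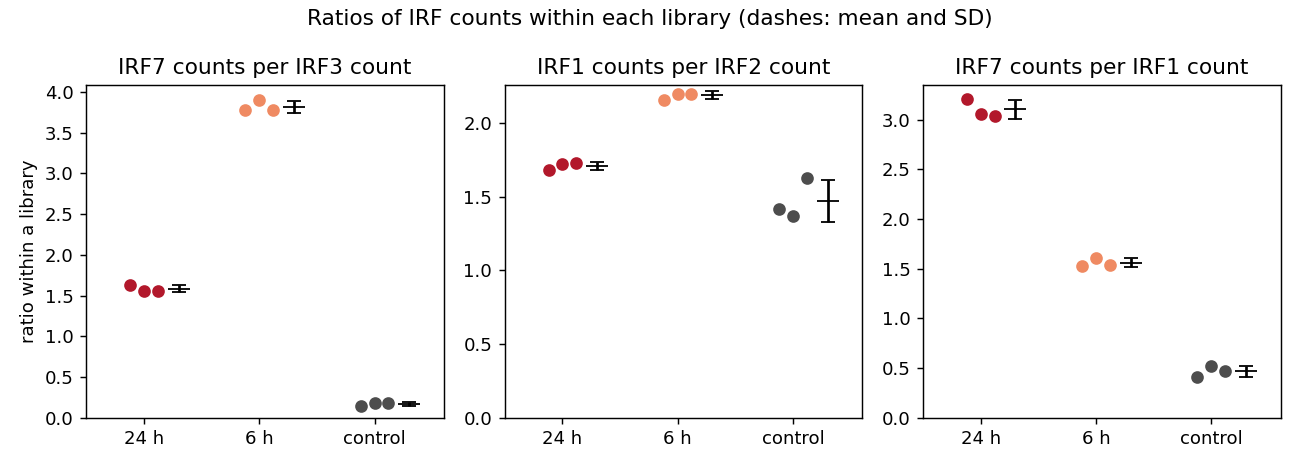
Ratios of counts within each library for IRF7 per IRF3, IRF1 per IRF2 and IRF7 per IRF1, at 24 h, 6 h and in control; points are libraries, dashes the mean and whiskers SD (n = 3). IRF7 per IRF3 lies under 0.2 in control and above 1.5 in all treated libraries.

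Levels of different genes were compared per kilobase of the longest principal transcript in GENCODE v29. At 24 h the order of the 5 was IRF7 at 37.1 ± 1.72, IRF3 at 27.6 ± 0.740, IRF1 at 6.84 ± 0.204, IRF2 at 6.22 ± 0.212 and IRF5 at 0.212 ± 0.0634 CPM per kilobase (SD, n = 3). At 6 h it was IRF7 at 86.2 ± 2.50, IRF1 at 31.7 ± 0.449, IRF3 at 26.6 ± 0.399, IRF2 at 22.5 ± 0.575 and IRF5 at 0.0763 ± 0.0354. In control it was IRF3 at 23.7 ± 1.02, IRF2 at 4.4 ± 0.159, IRF1 at 4.16 ± 0.248, IRF7 at 3.37 ± 0.384 and IRF5 at 0.0936 ± 0.0436.

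IRF3 made up 35.4% of the summed level of the 5 at 24 h, 15.9% at 6 h and 66.3% in control, and IRF7 47.6%, 51.6% and 9.44%. With the merged exons and the mean transcript length, the IRF7 share was 58.5% and 39.9% at 24 h, 60.8% and 40.6% at 6 h, and 14.1% and 7.23% in control. IRF2 and IRF1 in control overlapped between libraries. Among the 5, the first place of IRF7 in both treated groups, that of IRF3 in control and the last place of IRF5 held also with the merged exons and with the mean transcript length. IRF9, outside the 5, stood at 38 CPM per kilobase at 24 h, beside 37.1 for IRF7. At that time IRF9 was above IRF7 with the mean transcript length (79 against 55.2) and below it with the merged exons (18.4 against 28.9). At 6 h IRF9 was below IRF7 with each length. The order of IRF1, IRF2 and IRF3 at 6 h, of IRF1 and IRF2 at 24 h, and of IRF1 and IRF7 in control depended on which length was used.

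Of the genes that activate IRF3, IRF5 and IRF7, more rose than fell at both times. Of 21 listed sensors, adaptors and kinases 20 were tested. At 24 h 10 rose and 6 fell, beside 24.7% and 25.3% of all genes tested, and at 6 h 12 rose and 2 fell, beside 17.5% and 15.4%. Their median log2 change was 0.14 at 24 h and 0.38 at 6 h, against 0.005 and -0.005 over all genes. Between the times 3 were higher and 11 lower at 24 h, beside 26.6% and 30.6%.

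The largest rises in that list were those of the RNA sensors. IFIH1, the sensor of long double-stranded RNA, averaged 100.3 CPM at 24 h, 451 CPM at 6 h and 7.48 CPM in control. DDX58, which encodes RIG-I, averaged 114, 709 and 12.3 CPM in those groups, and TLR3, the endosomal sensor, 32.3, 120 and 5.55 CPM. MYD88, the adaptor that links Toll-like receptors to IRF5 and IRF7, averaged 87.3 CPM at 24 h, 380 CPM at 6 h and 58.0 CPM in control. STING1, the adaptor of cytosolic DNA sensing, averaged 66.7, 106.5 and 29.6 CPM. All 5 rose at both times and fell between them by edgeR, with the highest of their 15 adjusted p-values at 4.06e-09 (MYD88 at 24 h). Not all of the list did so. TICAM1, an adaptor, rose at 6 h (log2 1.15, adjusted p = 1.47e-12, edgeR) but fell below control at 24 h (log2 -0.21, adjusted p = 0.000505, edgeR). CGAS, a sensor, also rose at 6 h (log2 0.74, adjusted p = 5.34e-07, edgeR) and fell at 24 h (log2 -0.37, adjusted p = 0.000584, edgeR).

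TBK1 and IKBKE, the kinases that phosphorylate IRF3 and IRF7, had log2 changes of 0.52 or less. TBK1 had 45.8, 47.9 and 44.1 CPM at 24 h, 53.7, 58.6 and 63.1 CPM at 6 h, and 39.3, 44.3 and 39.6 CPM in control. Its log2 change was 0.52 at 6 h (SE 0.062, adjusted p = 8.11e-06, edgeR), and 0.15 at 24 h (SE 0.061, adjusted p = 0.0473, edgeR), where the groups overlapped. The 24 h call was lost without 6 h replicate 2, 24 h replicate 1 or 2, or control replicate 1 or 3, with edgeR adjusted p-values from 0.0549 to 0.182, and with limma-voom (adjusted p = 0.0588). IKBKE, its partner kinase, averaged 7.54 CPM at 24 h, 6.91 CPM at 6 h and 5.38 CPM in control, a log2 rise of 0.49 at 24 h (adjusted p = 0.000759, edgeR) and 0.36 at 6 h (adjusted p = 0.0155, edgeR). The 6 h call was lost without 6 h replicate 2 (adjusted p = 0.0618, edgeR) or control replicate 1 (adjusted p = 0.051, edgeR), and with DESeq2 (adjusted p = 0.0813). It was also lost when edgeR scaled by library size alone (adjusted p = 0.104), and when limma tested the deposited normalized table (adjusted p = 0.0837 and 0.0739 at pseudocounts 1 and 0.1). IRAK1, a kinase of the MYD88 pathway named after its values were seen, averaged 416 CPM at 24 h, 674 CPM at 6 h and 669.5 CPM in control. It fell by 0.69 on the log2 scale at 24 h (SE 0.029, adjusted p = 3.41e-11, edgeR) and was not called at 6 h (adjusted p = 0.869, edgeR); the 24 h call was lost in the deposited normalized table (adjusted p = 0.197). MAVS, the adaptor shared by IFIH1 and RIG-I, averaged 81.8, 82.6 and 93.7 CPM and fell by 0.19 on the log2 scale at 24 h and 0.18 at 6 h (adjusted p = 0.000396 and 0.00179, edgeR). In the deposited normalized table MAVS did not pass, and at 24 h it was above control.

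Among 24 listed regulators and cofactors of IRF proteins, all tested, 5 rose and 11 fell at 24 h, beside 24.7% and 25.3% of all genes tested, and 9 rose and 4 fell at 6 h, beside 17.5% and 15.4%. Their median log2 change was -0.08 at 24 h and -0.00 at 6 h, against 0.005 and -0.005 over all genes. Between the times 3 were higher and 16 lower at 24 h, beside 26.6% and 30.6% of all genes. The largest rises were those of ubiquitin ligases that act on IRF proteins. TRIM21 averaged 34.5 CPM at 24 h, 104.5 CPM at 6 h and 11.95 CPM in control. RBCK1 averaged 59.6, 116 and 35.1 CPM, and TRIM26 averaged 101, 183 and 65.9 CPM. All 3 rose at both times, by log2 1.51, 0.77 and 0.62 at 24 h and by log2 3.11, 1.72 and 1.48 at 6 h. Among those that fell at 24 h were KPNA2, an importin that carries proteins into the nucleus, and DDX3X, an RNA helicase that assists TBK1 signalling. KPNA2 averaged 262 CPM at 24 h, 511 CPM at 6 h and 518 CPM in control, a log2 change of -0.98 at 24 h (SE 0.026, adjusted p = 6.92e-14, edgeR). DDX3X averaged 325, 566 and 469 CPM, with log2 changes of -0.53 at 24 h (adjusted p = 1.53e-09, edgeR) and 0.27 at 6 h (adjusted p = 5.63e-06, edgeR). Both DDX3X calls were lost in the deposited normalized table (adjusted p = 0.641 and 0.0748).

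**Figure D4:**
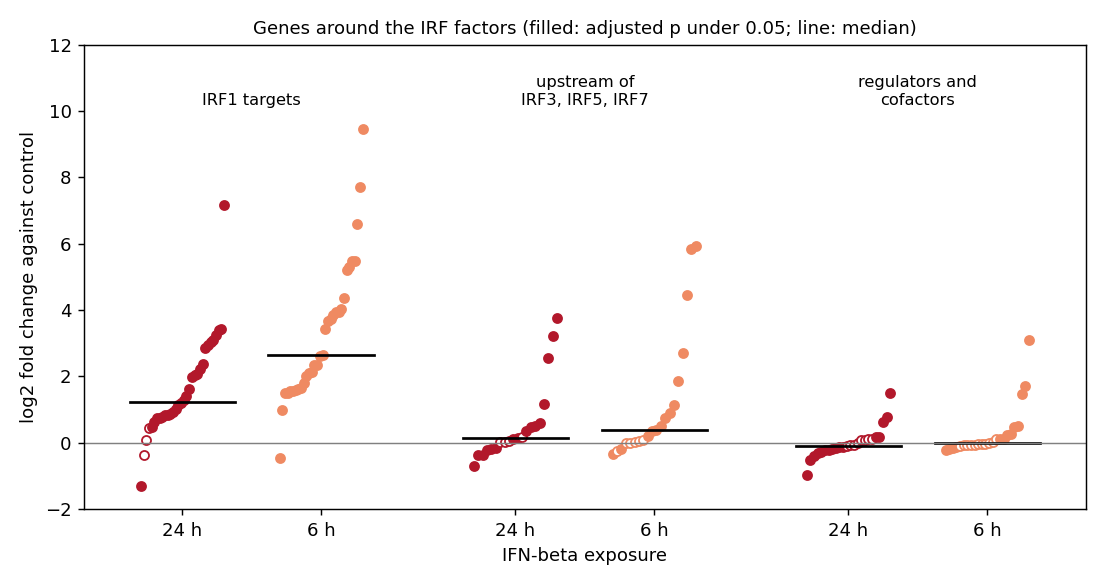
Log2 fold changes against control at 24 h and 6 h for the tested members of 3 gene lists; each point is a gene, filled where its adjusted p is under 0.05, and lines are medians. The medians of the listed IRF1 targets are 1.24 at 24 h and 2.63 at 6 h, and those of the regulators lie near 0.

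Of 33 genes listed as IRF1 targets 32 were tested. At 24 h 28 rose and 1 fell, beside 24.7% and 25.3% of all genes tested, and at 6 h 31 rose and 1 fell, beside 17.5% and 15.4%. The median log2 change was 1.24 at 24 h, 2.63 at 6 h and -1.22 between the times, where 28 were lower, beside 30.6% of all genes. These counts and medians include genes near the limit of detection in control. GBP5, IDO1 and SOCS1, with 1, 1 and 22 summed counts in control, passed the low-count filter only through their 6 h libraries. CASP1, CD274, TRIM22 and VCAM1 passed it only through treated libraries. Each of these had to differ between groups to be tested, so their rises are descriptions. Many of the listed genes are also driven by ISGF3 directly, so the list does not separate IRF1 from other factors. NLRC5, the activator of class I antigen presentation, had 38.6, 38.4 and 37.6 CPM at 24 h, 205, 199 and 190 CPM at 6 h, and 4.74, 3.93 and 4.82 CPM in control. GBP1, an interferon-induced GTPase, averaged 27.9 CPM at 24 h, 278 CPM at 6 h and 7.07 CPM in control. CASP1, the inflammasome protease, averaged 1.89, 6.57 and 0.182 CPM, and its controls held 2, 2 and 5 counts.

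The exceptions were chosen after their values were seen. GBP5, CASP8 and SOCS1 rose at 6 h but were not called against control at 24 h (adjusted p = 0.823, 0.0799 and 0.446, edgeR). VCAM1 was not called between the times (adjusted p = 0.865, edgeR). LIFR, a cytokine receptor subunit, was the 1 gene that fell against control, averaging 2.49 CPM at 24 h, 4.56 CPM at 6 h and 6.29 CPM in control. Its log2 change was -1.31 at 24 h (adjusted p = 2.76e-06, edgeR) and -0.45 at 6 h (adjusted p = 0.0291, edgeR), the call at 6 h being lost with DESeq2 (adjusted p = 0.0629) and without 6 h replicate 1 or 2 or control replicate 1 or 3 (highest adjusted p = 0.145, edgeR). B2M, the class I light chain, BST2, which tethers virus particles, and CTSS, a lysosomal protease, were higher at 24 h than at 6 h. B2M averaged 1318 CPM at 24 h, 1075 CPM at 6 h and 537.5 CPM in control, and BST2 averaged 312, 170 and 32.9 CPM. CTSS averaged 40.9, 37.3 and 8.69 CPM, and its call between the times was lost with DESeq2 (adjusted p = 0.0966) and without 6 h replicate 1 or 24 h replicate 2 or 3 (highest adjusted p = 0.151, edgeR).

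STAT2, the ISGF3 subunit that carries the activation domain, followed the same order of groups as IRF9. It had 94.6, 87.2 and 88.6 CPM at 24 h, 325, 324 and 351 CPM at 6 h, and 22.6, 19.1 and 23.1 CPM in control. The groups did not overlap, with log2 rises of 2.07 at 24 h (SE 0.063, adjusted p = 4.02e-13, edgeR) and 3.96 at 6 h (SE 0.060, adjusted p = 3.53e-17, edgeR).

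The genes whose levels ran most like each factor were found by the root mean square difference of centred log2(CPM + 0.5) over all 9 libraries, among 11842 genes with a group mean of at least 5 CPM. Nearest to IRF7 was OAS1 at 0.075, then DHX58 at 0.122 and TYMP at 0.131. Nearest to IRF1 was MYD88 at 0.091, then GBP3 at 0.131 and NT5C3A at 0.132. Nearest to IRF2 was WARS1 at 0.041, then CIITA at 0.082. Nearest to IRF3 was RAB5C at 0.024, then LMAN2 at 0.032. IRF5 was below the minimum level. The listed differences describe these libraries, and the 9 libraries share their 3 groups.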

How the data were processed

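RNA from 9 libraries of SUIT2 cells was sequenced, per the labels. The submitters' processing notes name STAR 2.7.8a, Partek and hg38. No source used here states the annotation, counting or strand settings. Estimated counts for 59609 genes, as the authors deposited them, were rounded to whole numbers, since they need not be whole and the design had assumed counts. A second deposited table holds the authors' TMM-normalized signal, made after adding 0.0001. It served as an alternative only.

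All 9 libraries entered 1 edgeR model (edgeR 4.0.16, R 4.3.3; minimum count 10, minimum total 15), with TMM factors, the quasi-likelihood test and Benjamini-Hochberg adjustment over 16964 genes at 0.05. There were 6 residual degrees of freedom and a biological coefficient of variation of 0.0392. The SE of a log2 fold change is its size over the root of the F statistic, and levels are mean ± SD in CPM. The fit was tested on simulated data with known changes. Each library counted as 1 sample. Chi-square values of replicate pairs averaged 1.60 to 5.65 over genes, above sampling noise. That spread cannot show whether the replicates came from separate cultures, since library preparation can add to it too. Coordinates are 1-based from the deposited tables; their end column ran 1 base beyond GENCODE v29 for 81.5% of shared symbols and was taken back by 1 base.

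The members and lists were chosen with earlier results of these data known. The 5 members are named whatever their result, with IRF4, IRF8, IRF9 and the IRF2 binding proteins; some other listed genes are not reported here. Of each list, the called genes with the largest changes at a group mean of at least 5 CPM were eligible, with a few genes chosen in advance, and not all are printed. Alternatives were DESeq2 1.42.0, limma-voom (limma 3.58.1), other scalings and filters, fits of 2 groups, a replicate block, leaving out each library, thinning to 15101664 counts, a threshold of 0.01, and limma on the deposited normalized signal, as log2 with pseudocounts of 1 and 0.1. The length of the principal transcript was added after seeing the data. Permutation tests used scipy 1.17.1.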

Additional observations from a re-analysis of the deposited data

Results flagged for a closer look

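For IRF1, IRF2 and IRF7 the change against control at 24 h differed from that at 6 h, by the test of 24 h against 6 h in the same edgeR model. The difference in log2 change was -2.21 for IRF1, -1.85 for IRF2 and -1.21 for IRF7, so these were lower at 24 h than at 6 h in 3 of 3 libraries. For IRF5 the value was 1.58, from 65 summed counts at 24 h and 14 at 6 h. IRF5 was tested only because its 24 h libraries passed the low-count filter, so this value is a description. The 24 h and 6 h comparisons share their control libraries, and the difference between them does not use those.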

How the results depend on the processing

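IRF1, IRF2 and IRF7 kept direction and call in all 3 comparisons under all 21 alternatives: at 24 h log2 changes ran from 0.68 to 1.15, 0.48 to 0.93 and 3.37 to 3.88, and at 6 h from 2.79 to 3.09, 2.21 to 2.51 and 4.53 to 4.83. IRF3 at 6 h was no longer called with library size only (0.026, adjusted p = 0.662) or in the deposited normalized table (0.327 and 0.334 at pseudocounts 1 and 0.1), and between the times it was called with library size only (0.272). For IRF5 16 alternatives gave a value against control and 17 between the times. At 24 h it was not called with DESeq2 (1.228) or at a threshold of 0.01 (1.239), and leaving out 1 library gave 0.934 to 1.626; at 6 h leaving out 1 library gave -0.642 to 0.050, turning positive without control replicate 3. The deposited table called 1826 and 1854 genes at 6 h (5576 in the main analysis), 5849 and 5636 between the times (9704), and 57 and 56 members of the IRF-related lists between the times (86); the median of all genes on it was 0.371 at 24 h, 0.134 at 6 h and 0.215 between the times, so directions of small changes differ there. The causes were not tested. In that table, at pseudocounts 1 and 0.1, signs turned at 6 h for BCL2L12 (0.064 and 0.068), IRF2BP1 (0.057 and 0.059), IRF2BP2 (0.095 and 0.095) and KPNA2 (0.145 and 0.145), and for CCL5 at pseudocount 0.1 (0.003). They also turned at 24 h for BCL2L12 (0.375 and 0.397), IRF2BP1 (0.160 and 0.167), IRF2BPL (0.113 and 0.116), IFNE (0.113 and 0.207) and MAVS (0.241 and 0.243), and between the times for IRF2BP1 (0.102 and 0.108) and MAVS (0.257 and 0.260). With library size only, signs turned for PHRF1 (-0.101) and IRAK1 (-0.131) at 6 h, BCL2L12 at 24 h (0.034), and IRF2BP1 (0.051) and MAVS (0.201) between the times. MAVS also turned with 2 groups per fit (0.009), and PHRF1 (-0.027) and CDHR5 (-0.200) with thinning, all between the times. Leaving out 1 library gave -0.107 to 0.042 for BCL2L12, -0.009 to 0.030 for IRF2BP2 and -0.387 to 0.010 for IFNE at 24 h, -0.011 to 0.039 for IRAK1 at 6 h, and -0.039 to 0.020 for MAVS and -0.030 to 0.061 for PHRF1 between the times. Among other named genes, 80 further values lost and 30 gained a call without turning sign. Same-numbered libraries were not paired by the labels, and their deviations correlated at -0.26 to 0.10. With the replicate block, 8133 genes were called at 24 h, 5149 at 6 h and 9393 between the times. Depth limits IRF5, IRF4 and IRF8.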

Other observations

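Most genes of the interferons themselves, which IRF3 and IRF7 are known to drive, were near or below detection. IFNB1 had 1, 0 and 3 counts at 24 h, 1, 0 and 1 counts at 6 h, and 0 in all 3 controls. IFNA1, IFNA2, IFNA4, IFNA7 and IFNK had 0 counts in all 9 libraries, which allows up to 0.0697 to 0.196 CPM in a library. Of the 15 interferon and chemokine genes listed, 4 had enough counts to be tested, and they are named after their values were seen. IFNE, an epithelial interferon, had 37, 32 and 34 counts at 24 h, 25, 34 and 76 counts at 6 h, and 26, 19 and 15 counts in control. It was not called against control at either time, although 4 alternatives gave a call at 6 h (lowest adjusted p = 0.0228, edgeR without control replicate 1). It was lower at 24 h than at 6 h (log2 -0.92, adjusted p = 0.00347, edgeR), a call lost in the deposited normalized table. CXCL10, a chemokine for T cells, had 12, 9 and 11 counts at 24 h, 28, 48 and 92 counts at 6 h, and 0, 2 and 1 counts in control, and rose at 24 h (adjusted p = 0.00686, edgeR) and at 6 h (adjusted p = 2.37e-07, edgeR). CXCL11, which shares its receptor, had 13, 9 and 4 counts at 24 h, 12, 26 and 42 counts at 6 h, and 0, 1 and 1 counts in control. It rose at 24 h (adjusted p = 0.0195, edgeR) and at 6 h (adjusted p = 3.98e-05, edgeR), the 24 h call being lost with DESeq2 (adjusted p = 0.0503) and without 24 h replicate 1 or control replicate 1 or 2 (highest adjusted p = 0.0792, edgeR), and also after thinning and in the deposited normalized table at pseudocount 1. CCL5, another T cell chemokine, had 24, 15 and 17 counts at 24 h, 4, 2 and 5 counts at 6 h, and 4, 5 and 1 counts in control. Against control it was called at 24 h only (adjusted p = 0.0189, edgeR). That call was lost with DESeq2 (adjusted p = 0.0986) and without 24 h replicate 1 or control replicate 3 (highest adjusted p = 0.0857, edgeR). CCL5 was also higher at 24 h than at 6 h (adjusted p = 0.00399, edgeR). CXCL10, CXCL11 and CCL5 are low-count genes whose fitted folds are not given. CXCL10 and CXCL11 passed the low-count filter only through their 6 h libraries, and CCL5 only through its 24 h libraries. Each had to differ between groups to be tested, so their calls are descriptions.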
